A study of Rattus norvegicus with 9 samples.

Results

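The nuclear-encoded subunits of respiratory complexes II, III and IV, cytochrome c and ATP synthase (complex V) were followed in rat hippocampal RNA on 9 arrays of the Affymetrix type. The members are the 57 probe sets for which every gene symbol listed by the platform annotation is an Sdha to Sdhd, Uqcr, Cyc1, Cycs, Cox4 to Cox8 or Atp5 symbol, out of 31042 probe sets that are no array controls, and they stand for 50 genes or groups of genes listed together. A probe set is a group of short probes that together read 1 transcript. Of the members, 51 are listed with 1 symbol and 6 with several related symbols. The level is log2(signal + 16) after quantile normalization, and 52 members passed the filter on low signal, among 18625 tested probe sets. The 52 comprise 5 probe sets of complex II, 10 of complex III, 2 of cytochrome c, 15 of complex IV and 20 of ATP synthase, and they stand for 47 of the 50. The 5 members under the filter were Cox8b (1367739_at), Cox4i2 (1368648_at), Cox7b2 (1384577_at), 1 of 3 probe sets of Atp5if1 (1371230_x_at) and 1 of 2 of Atp5me (1377191_at).

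The arrays fall into 3 groups of 3: control in artificial cerebrospinal fluid alone, ketone bodies for 1 h, and ketone bodies for 6 h. The labels name the source as hippocampus of the brain and describe the RNA as coming from hippocampal neurons. They give no strain, age or sex, no ketone body or dose, and no exposure time for the control. Whether the replicates came from different animals or cultures is not stated, so a p-value here measures only the spread between these arrays, and the number of arrays limits the precision. In RNA from a mixture of cells, fewer cells of a type and less RNA per cell cannot be told apart.

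The respiratory chain of the inner mitochondrial membrane passes electrons from NADH and succinate to oxygen and pumps protons, and ATP synthase uses the returning protons to make ATP. Complex II, succinate dehydrogenase, is also an enzyme of the citric acid cycle and pumps no protons. Complex III passes electrons from ubiquinol to the soluble carrier cytochrome c, and complex IV, cytochrome c oxidase, hands them to oxygen. Complexes III, IV and V each combine subunits made in the nucleus with a few made from mitochondrial DNA, while complex II is made wholly from nuclear genes. Ketone bodies are fuels that the liver makes from fat, and the brain oxidises them through acetyl-CoA, the citric acid cycle and this chain.

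Marker genes listed for 8 cell types were read as summed signal per array, on the values as deposited. All 11 neuronal markers were above the filter, and their sum was 22370 to 22670 on the control arrays, 21750 to 22950 at 1 h and 21400 to 22580 at 6 h. On the log2 scale of the fit, 10 of these 11 had a negative change at 1 h and 9 at 6 h, with medians of -0.14 at both times. At 1 h, 3 were lower and 0 higher at an unadjusted p under 0.05, namely Camk2a (-0.44 ± 0.14), Map2 (-0.30 ± 0.13) and Gad2 (-1.30 ± 0.51), and at 6 h none was. Among all tested probe sets, 4.67% were lower and 6.68% higher at that threshold at 1 h. The log2 change was positive for 55.3% of them at 1 h and 53.8% at 6 h. All 6 astrocyte markers, all 7 markers of microglia and macrophages and the 5 oligodendrocyte markers on the array were also above the filter. The astrocyte sum was 11970 to 12790 on control arrays, 12140 to 13110 at 1 h and 12130 to 13440 at 6 h. Glial transcripts were thus present in RNA described as neuronal. Among microglial markers at 1 h, Aif1 (0.75 ± 0.17) and C1qa (0.30 ± 0.11) were higher and P2ry12 (-0.33 ± 0.13) lower at an unadjusted p under 0.05. Lower at that threshold were also the astrocyte marker Gja1 (-0.21 ± 0.06) and the choroid plexus marker Ttr (-0.21 ± 0.06). Aif1 was higher at 6 h too (0.40 ± 0.17). The sum of the 2 red blood cell markers on the array, of 4 listed, was 2774 to 3593 on the control arrays, 4056 to 5138 at 1 h and 3727 to 4973 at 6 h, so neither ketone group overlapped the control. Nearly all of that sum was Hbb, higher at an unadjusted p under 0.05 at 1 h (0.39 ± 0.12) and 6 h (0.32 ± 0.12). Alas2 had 0.18 ± 0.16 and 0.25 ± 0.16. Of all tested probe sets, 13% had 1 h arrays all above the control arrays, and 6.05% had 6 h arrays so. The sum of the 6 markers of endothelium and pericytes was 748 to 770.9 on the control arrays. It was 753.1 to 839.8 at 1 h and 817 to 859.1 at 6 h, so the 6 h arrays stood above the control arrays. Most of this sum was Cldn5 (mean signal 478.6). The median log2 change of the 6 was 0.16 at 6 h, with 4 positive and 2 negative. None of the 6 was at an unadjusted p under 0.05. The beta-actin ratio, log2 of the 3' over the 5' control signal and a sign of RNA degradation, was 1.35 ± 0.08 on the control arrays, 1.84 ± 0.40 at 1 h and 1.82 ± 0.77 at 6 h (SD, n = 3 each). Exact 2-sided permutation tests against control gave p = 0.2 at 1 h and p = 0.4 at 6 h, where 0.1 is the smallest possible. The same ratio for Gapdh was 0.13 ± 0.11 on the control arrays (SD, n = 3 each). It was 0.11 ± 0.04 at 1 h and 0.19 ± 0.23 at 6 h. For the Gapdh ratio, exact 2-sided permutation tests against control gave p = 0.8 at 1 h and p = 0.8 at 6 h. The part of neuronal, glial, choroid plexus, vessel and blood markers in the results below was not tested. Nor was that of RNA quality, apart from the fit that carries the beta-actin ratio as a covariate.

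The first comparison asked how the subunits differed after 1 h of ketone bodies. Most probe sets of the complexes lay slightly higher at 1 h, but only the probe set listed as Atp5mc1l1 and Atp5mc1 passed the test. Atp5mc1 encodes a precursor of subunit c, which forms the proton-carrying ring of ATP synthase. It was the sole call among 52 members at an adjusted p under 0.05, beside 0.0322% of all tested probe sets, or 6 of 18625, called in either direction. The log2 change was positive for 47 of the 52 members, against 55.3% of all tested probe sets. At an unadjusted p under 0.05, 17 members were higher and 0 lower, against 6.68% higher and 4.67% lower among all tested probe sets. The values on the 1 h arrays were all above the control arrays for 22 members, and all below them for 1, Uqcrc2 (1373362_at), against 13% and 8.26% of all tested probe sets. The median log2 change was 0.14 for the members and 0.029 over all tested probe sets. These shifts are small: 17 members had a log2 change of at least 0.2, and 2 of at least 0.5. The standard error of a member's change ran from 0.045 to 0.38 with a median of 0.077. Scaling alters the size: 29 members were higher at an unadjusted p under 0.05 on the values as deposited and 42 after centring array medians. The shares of all tested probe sets were then 5.88% and 11.3%, and the median changes of the members were 0.22 and 0.33. Without control replicate 3 the number was 9 (4.01% of all tested probe sets), and without 1 h replicate 2 it was 10 (5.27%).

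The median over the 52 members, taken against each member's control mean, was 0.017, 0.026 and -0.046 on the control arrays, 0.11, 0.18 and 0.12 at 1 h, and 0.044, 0.11 and 0.032 at 6 h. Every array at 1 h and at 6 h was thus above the 3 control arrays, with 6 h replicate 2 close to the lowest of the 1 h arrays. Of the 52 members, 39 had their highest value on a 1 h array (18 on replicate 2 and 15 on replicate 3), and 37 had their lowest on a control array, 23 of them on replicate 3.

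**Figure D1:**
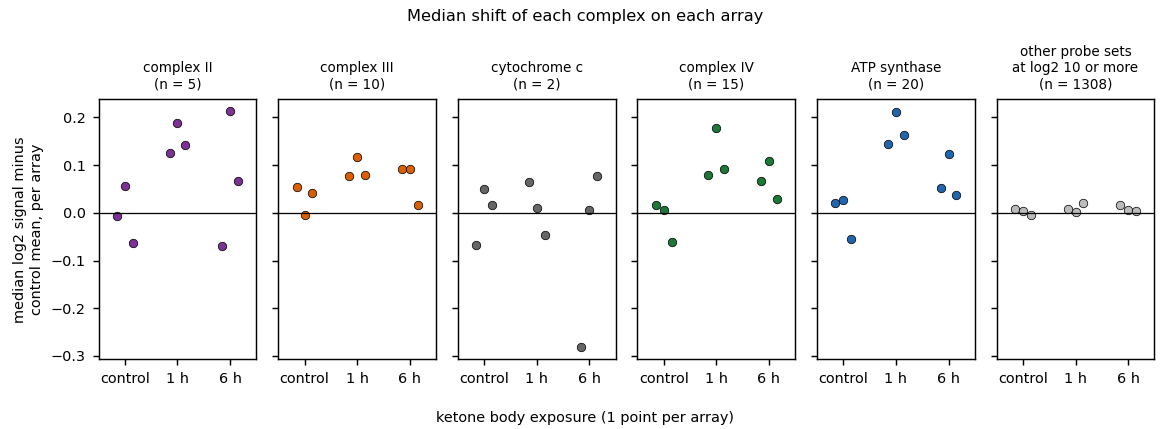
Each point is 1 array and gives the median, over the tested probe sets of a complex, of the log2 signal minus that probe set's control mean (vertical axis, log2 units), for control, 1 h and 6 h of ketone bodies (horizontal axis). The 20 probe sets of ATP synthase sit at 0.14 to 0.21 at 1 h, above the control arrays at -0.054 to 0.026, while the 1308 other probe sets with a mean log2 level of 10 or more stay between -0.0044 and 0.020 on all arrays.

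Most members are bright, and 43 of the 52 had a mean log2 level of 10 or more. Among these 43 the median log2 change at 1 h was 0.12 and 39 (90.7%) were positive, against -0.00019 and 49.9% positive for the 1308 other probe sets at that level. The difference between the medians was 0.12 after quantile normalization and 0.14 on the values as deposited. Centring moves every probe set of an array by the same amount, so it leaves this difference at 0.14 by construction. For the other bright probe sets the median was 0.095 as deposited and 0.20 after centring, with 74.3% and 88.5% positive.

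Promoters are shown for the member of each complex with the smallest p at 1 h, 1 each for complexes II, III, IV and V, to set the motifs in their windows side by side. They are the 250 bases before and 50 after the annotated start in RefSeq's GRCr8 assembly, written 5′ to 3′ on the gene's strand. Capitals mark the motifs searched on both strands, which are TGCGCA (core of NRF1 sites), CCGGAAG (ETS factors and GABP), ATGGCG (YY1), GGGCGG (SP1), AAGGTCA (1 arm of sites for estrogen-related receptors) and TGACG (1 arm of sites for CREB-type factors). Overlapping hits are joined in 1 run of capitals. Sdhb lies at chr5:158547684-158547983 (+), Uqcrfs1 at chr17:34186352-34186651 (+), Cox6a2 at chr1:192219667-192219966 (-) and Atp5mc1 at chr10:81523296-81523595 (-).
Sdhb: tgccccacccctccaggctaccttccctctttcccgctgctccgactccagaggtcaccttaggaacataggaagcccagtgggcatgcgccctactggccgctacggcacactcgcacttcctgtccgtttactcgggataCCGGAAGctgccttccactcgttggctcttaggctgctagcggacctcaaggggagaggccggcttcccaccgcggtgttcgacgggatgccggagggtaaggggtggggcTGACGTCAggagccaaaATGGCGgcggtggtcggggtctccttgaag
Uqcrfs1: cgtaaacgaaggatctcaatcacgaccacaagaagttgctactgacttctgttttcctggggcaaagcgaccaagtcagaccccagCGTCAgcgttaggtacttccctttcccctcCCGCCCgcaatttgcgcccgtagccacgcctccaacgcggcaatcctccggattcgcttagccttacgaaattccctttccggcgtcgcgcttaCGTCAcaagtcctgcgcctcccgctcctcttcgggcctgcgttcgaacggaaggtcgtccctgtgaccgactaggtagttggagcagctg
Cox6a2: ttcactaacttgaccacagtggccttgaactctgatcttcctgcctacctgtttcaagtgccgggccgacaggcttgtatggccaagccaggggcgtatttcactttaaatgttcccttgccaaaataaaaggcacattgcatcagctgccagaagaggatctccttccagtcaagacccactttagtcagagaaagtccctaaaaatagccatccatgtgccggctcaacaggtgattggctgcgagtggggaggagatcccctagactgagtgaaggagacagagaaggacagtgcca
Atp5mc1: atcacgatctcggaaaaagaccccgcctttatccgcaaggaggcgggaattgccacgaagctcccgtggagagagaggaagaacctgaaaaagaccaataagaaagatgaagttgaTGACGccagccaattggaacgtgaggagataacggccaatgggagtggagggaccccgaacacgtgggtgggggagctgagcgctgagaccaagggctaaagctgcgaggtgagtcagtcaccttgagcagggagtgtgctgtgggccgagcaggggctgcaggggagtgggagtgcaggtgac
The window of Sdhb holds 1 CCGGAAG, 1 ATGGCG and a pair of TGACG hits that overlap on opposite strands. Uqcrfs1 holds 1 GGGCGG and 2 TGACG hits, Atp5mc1 holds 1 TGACG, and Cox6a2 holds none of the 6 motifs, which says only that these letters are not in its window.

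The annotation held promoters for 44 of the 56 member symbols. Of these 44, 31.8% held CCGGAAG, 27.3% ATGGCG, 22.7% TGCGCA, 18.2% AAGGTCA and 40.9% TGACG, against 9.22%, 10.6%, 7.68%, 4.37% and 22% of all 27457 promoters. GGGCGG was in 36.4% of member promoters and 34.9% of all. The median GC content was 55.7% in member promoters and 52.3% in all, and its part in these shares was not tested. The promoters of Atp5mg and Cox8a each held 4 of the 6 motifs and that of Sdhd held 5. Those of Cox6a2, Cox7a1 and Cox6b2, isoforms with a narrow tissue range, held none. Whether the motifs go with the size of the change was not tested. Of the other isoforms with a narrow range, Cox7b2 held 1 ATGGCG and 1 GGGCGG, and Cox8b held 1 GGGCGG. The promoters of the widely expressed Cox6b1, Cox7b and Cox7c, and those of Cox7a2l2 and Atp5po, also held none.

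ATP synthase, the largest of the sets, had the highest count of members at an unadjusted p under 0.05 at 1 h. The share higher at that threshold was 55%, against 40% in complex II, 20% in complex IV and 10% in complex III. It was 6.68% over all tested probe sets and 9.02% over the 1308 other bright ones. The 1 h arrays were all above the control arrays for 60% of ATP synthase probe sets, against 13% and 13.9%. At 1 h, 19 of its 20 probe sets had a positive log2 change with a median of 0.18, 11 were higher at an unadjusted p under 0.05, and 12 had 1 h arrays all above the control arrays. The probe set listed as Atp5mc1l1 and Atp5mc1 (1367599_at) had log2 signals of 10.71, 10.68 and 10.68 on the control arrays, 11.28, 11.24 and 11.32 at 1 h, and 10.96, 11.18 and 10.98 at 6 h. All 3 arrays at 1 h lay above all at 6 h, and these lay above all control arrays. It rose by 0.59 ± 0.07 at 1 h (log2 change ± SE, n = 3 arrays per group throughout, limma adjusted p = 0.0293). Its adjusted p was 0.0798 without the filter, 0.152 without the intensity trend, 0.126 with the beta-actin ratio as a covariate, 0.113 with the replicate number as a block, 0.151 without the outlying arrays (1 h replicate 3 and 6 h replicate 1) and 0.0261 to 0.242 when each array was left out in turn, and its change stayed between 0.56 and 0.61 when each array was left out. The probe set cannot separate Atp5mc1 from Atp5mc1l1.

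The other genes of subunit c encode the same mature protein with different import sequences, and they had other patterns. Atp5mc3 (1367620_at) had 11.96, 12.05 and 12.02 on the control arrays, 11.99, 12.04 and 11.96 at 1 h, and values between 11.89 and 12.06 at 6 h, which overlap throughout (-0.012 ± 0.058 at 1 h, limma adjusted p = 0.946). The probe set listed as Atp5mc2l1 and Atp5mc2 (1370207_at) had 10.26, 10.74 and 9.95 on the control arrays, 10.51, 10.23 and 10.74 at 1 h, and 9.99, 10.34 and 10.31 at 6 h. Its arrays spread widely within each group, and the change of 0.18 ± 0.19 at 1 h had an adjusted p of 0.725. Whether the 3 subunit c probe sets differ from each other in their change was not tested.

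The 5 small subunits that sit beside the c ring in the membrane all had positive log2 changes at 1 h with a median of 0.24, and 4 were higher at an unadjusted p under 0.05. Atp5mg (1371335_at), the subunit g that helps ATP synthase form dimers, had 11.37, 11.40 and 11.19 on the control arrays, 11.60, 11.57 and 11.63 at 1 h, and 11.38, 11.40 and 11.44 at 6 h. The 1 h arrays stood above all others, while 6 h arrays overlapped the control arrays (0.28 ± 0.07 at 1 h, adjusted p = 0.299). Atp5mk (1370238_at), a small subunit that also takes part in dimers, had 12.11, 12.18 and 12.01 on the control arrays, 12.33, 12.32 and 12.38 at 1 h, and 12.31, 12.21 and 12.18 at 6 h (0.24 ± 0.06 at 1 h, adjusted p = 0.299). Its 1 h arrays lay above all others, and the 6 h and control arrays overlapped. Atp5mf (1371398_at), subunit f, had 11.60, 11.56 and 11.60 on the control arrays, 11.71, 11.88 and 11.71 at 1 h, and 11.75, 11.73 and 11.66 at 6 h. Both ketone groups lay above the control arrays for Atp5mf, with changes of 0.18 ± 0.06 at 1 h and 0.13 ± 0.06 at 6 h. The brighter probe set of Atp5me, subunit e (1387019_at), had 0.31 ± 0.14, with overlapping groups, and Atp5mpl (1389866_at), another small membrane subunit, had 0.14 ± 0.07.

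The peripheral stalk holds the catalytic head still while the ring turns. Its 5 tested probe sets, for 4 genes, all had positive log2 changes at 1 h with a median of 0.21, and 4 were higher at an unadjusted p under 0.05. The changes were 0.22 ± 0.10 for Atp5pf (subunit F6), 0.21 ± 0.08 for Atp5pb (subunit b), 0.19 ± 0.07 for the brighter probe set of Atp5po (1370276_at, the oligomycin sensitivity protein) and 0.17 ± 0.07 for Atp5pd (subunit d), with 1 h arrays all above control arrays in each. The dim Atp5po probe set (1397920_at) had 0.29 ± 0.22 and overlapped.

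The head and central stalk, where ATP is made, had smaller positive values, with a median of 0.065 over 5 genes and 1 higher at an unadjusted p under 0.05. That was Atp5f1b, the catalytic beta subunit, at 0.16 ± 0.07 (unadjusted p = 0.0474). Atp5f1a, the alpha subunit, had 0.016 ± 0.066, and the stalk subunits Atp5f1c (gamma), Atp5f1d (delta) and Atp5f1e (epsilon) had 0.048 ± 0.047, 0.065 ± 0.088 and 0.094 ± 0.077. The difference between the head and the peripheral stalk or membrane subunits was not tested.

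Atp5if1 encodes the inhibitor that stops ATP synthase from running backwards. Its bright probe set (1369588_a_at) had 10.19, 10.12 and 10.08 on the control arrays, 10.36, 10.49 and 10.38 at 1 h, and 10.22, 10.36 and 10.21 at 6 h. Every ketone array was above every control array (0.28 ± 0.08 at 1 h, adjusted p = 0.32, and 0.14 ± 0.08 at 6 h). A dim probe set of the gene (1371229_at) had 0.043 ± 0.18 at 1 h and -0.063 ± 0.18 at 6 h, with 5.21, 5.16 and 5.35 on the control arrays, 5.35, 5.45 and 5.06 at 1 h, and 4.95, 5.49 and 5.09 at 6 h. That probe set sits at the filter, its groups overlap, and its sign at 6 h differs from that of the bright one.

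In complex II, 4 of 5 probe sets had positive log2 changes at 1 h, with a median of 0.21 and 2 higher at an unadjusted p under 0.05. Sdhb (1372123_at), the iron-sulfur subunit, had 10.63, 10.66 and 10.64 on the control arrays, 10.80, 10.83 and 10.92 at 1 h, and 10.59, 10.89 and 10.72 at 6 h. The 1 h arrays were all above the control arrays, and the 6 h arrays spread across both (0.21 ± 0.08 at 1 h, adjusted p = 0.398). The membrane anchor Sdhd had nearly the same change at both of its probe sets, 0.22 ± 0.08 (1388294_at) and 0.21 ± 0.13 (1371296_at). The brighter had 10.54, 10.41 and 10.38 on the control arrays, 10.66, 10.73 and 10.59 at 1 h, and 10.41, 10.66 and 10.53 at 6 h. The dimmer had 9.35, 9.34 and 9.17 on the control arrays, 9.37, 9.65 and 9.47 at 1 h, and 9.07, 9.50 and 9.35 at 6 h. In both, 1 h arrays stood above the control arrays and 6 h arrays overlapped them.

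Sdhc (1371311_at), the other anchor subunit, had 10.52, 10.69 and 10.59 on the control arrays, 10.42, 10.70 and 10.62 at 1 h, and 10.32, 10.74 and 10.66 at 6 h, which overlap (-0.017 ± 0.12 at 1 h). Sdha (1367678_at), the flavoprotein that binds succinate, had 10.60, 10.69 and 10.53 on the control arrays, 10.73, 10.62 and 10.65 at 1 h, and 10.54, 10.34 and 10.53 at 6 h. Its 1 h arrays overlapped the control arrays (0.060 ± 0.079), and at 6 h it had the most negative change of the complex (-0.14 ± 0.08, unadjusted p = 0.114).

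In complex III, 9 of 10 probe sets had positive log2 changes at 1 h, but the median was 0.072. At an unadjusted p under 0.05, 1 was higher (10%, near the 9.02% of the other bright probe sets). That was Uqcrfs1 (1371254_at), the Rieske iron-sulfur protein, with 10.86, 10.91 and 10.46 on the control arrays, 11.12, 11.09 and 11.13 at 1 h, and 11.04, 11.04 and 10.99 at 6 h. The ketone arrays all lay above the control arrays, of which replicate 3 was far below the other two (0.37 ± 0.11 at 1 h, adjusted p = 0.334, and 0.28 ± 0.11 at 6 h, adjusted p = 0.987). The other redox subunit, Cyc1 (cytochrome c1), had 0.063 ± 0.064.

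The core subunits, Uqcrc1 and Uqcrc2, had no probe set at an unadjusted p under 0.05, and differences between them were not tested. Uqcrc1 (1388301_at) had 10.82, 10.81 and 10.40 on the control arrays, 10.94, 10.72 and 11.11 at 1 h, and 10.95, 10.78 and 10.68 at 6 h, with overlap (0.24 ± 0.14 at 1 h). Uqcrc2 (1373362_at) had 11.48, 11.49 and 11.60 on the control arrays, 11.46, 11.43 and 11.41 at 1 h, and 11.27, 11.49 and 11.55 at 6 h. It was the member whose 1 h arrays were all below the control arrays (-0.090 ± 0.077, unadjusted p = 0.273), a value that was 0.034 as deposited and 0.14 after centring. A second Uqcrc2 probe set (1382280_at) scattered over more than 1 log2 unit, with 10.43, 9.55 and 10.51 on the control arrays, 10.71, 10.27 and 9.56 at 1 h, and 9.30, 9.75 and 10.64 at 6 h, and its standard error of 0.38 was the largest of the members. The 5 small subunits had positive changes between 0.036 (Uqcr11) and 0.16 (Uqcr10). Uqcr10 (1371381_at) had 11.37, 11.31 and 11.50 on the control arrays, 11.50, 11.62 and 11.53 at 1 h, and 11.53, 11.59 and 11.41 at 6 h (0.16 ± 0.07 at 1 h, unadjusted p = 0.0559).

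Cytochrome c was read by 2 probe sets listed as Cycs-ps9, Cycsl1 and Cycs, so signal of the gene and its copies cannot be separated. The first (1369939_at) had 11.97, 12.14 and 12.17 on the control arrays, 12.06, 12.08 and 12.03 at 1 h, and 11.94, 12.07 and 12.10 at 6 h (-0.037 ± 0.066 at 1 h). The other (1387773_at) had 11.31, 11.39 and 11.28 on the control arrays, 11.49, 11.36 and 11.30 at 1 h, and 10.92, 11.36 and 11.48 at 6 h (0.055 ± 0.12 at 1 h). All groups overlapped at both. The changes had opposite signs at 1 h and were both negative at 6 h (-0.058 ± 0.066 and -0.074 ± 0.12).

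**Figure D2:**
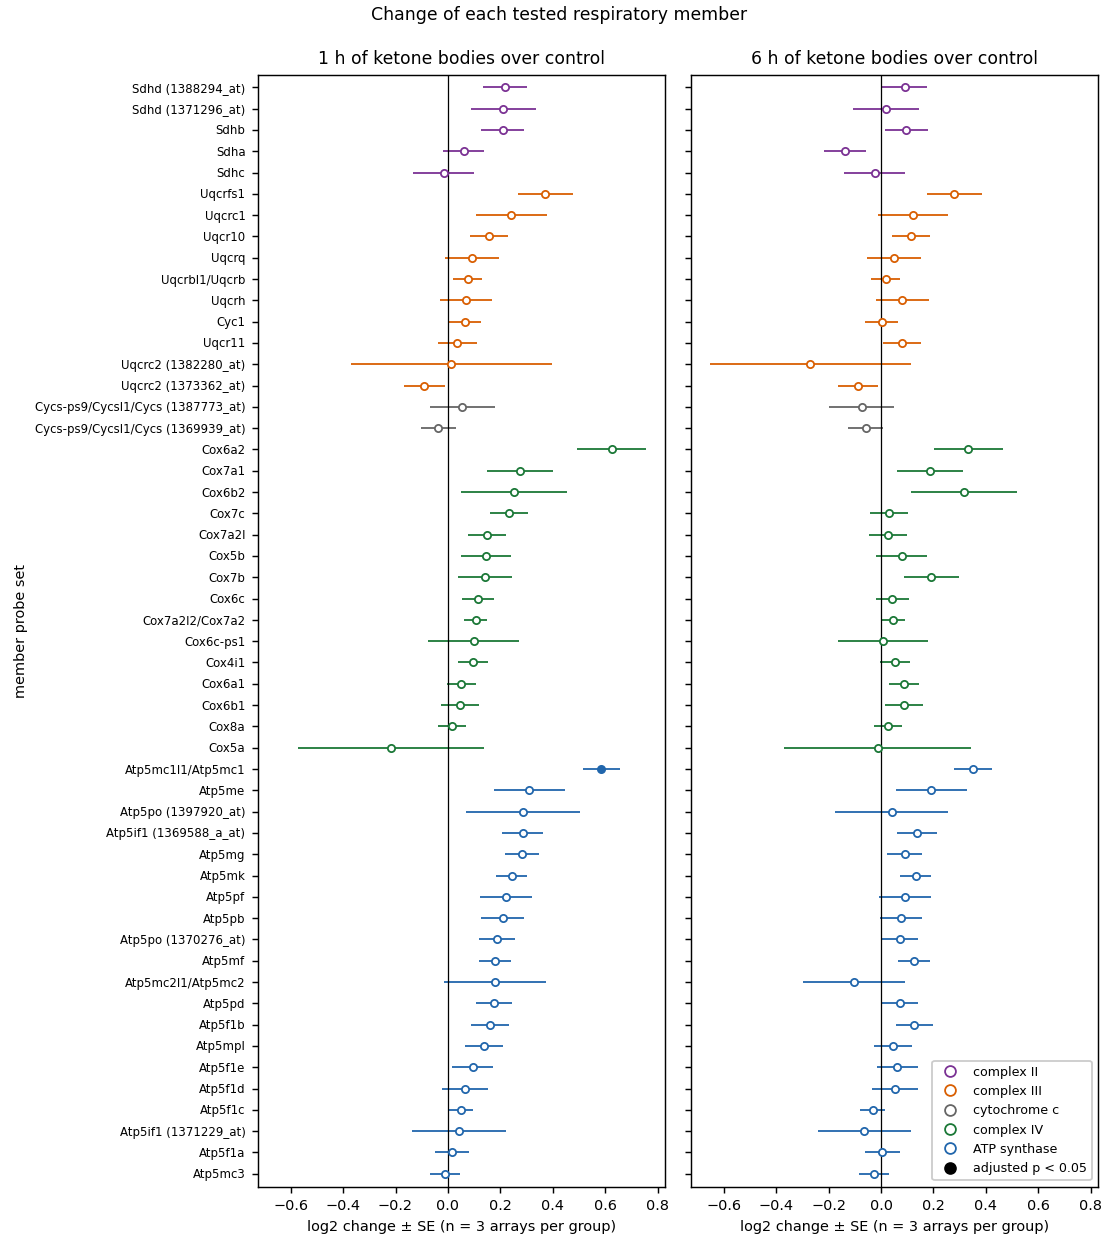
Log2 change of each of the 52 tested probe sets (rows, grouped by complex in colour) at 1 h and at 6 h of ketone bodies over control (horizontal axes, log2 units), with bars for the standard error and a filled point for an adjusted p under 0.05. At 1 h 47 points lie right of 0 and the probe set listed as Atp5mc1l1 and Atp5mc1 is the one filled point, while at 6 h 41 lie right of 0 and none is filled.

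In complex IV, 14 of 15 probe sets had positive log2 changes at 1 h, with a median of 0.12 and 3 higher at an unadjusted p under 0.05. The largest change among them belonged to Cox6a2 (1367782_at), the isoform of subunit VIa known from heart and skeletal muscle. It had 6.54, 6.66 and 6.38 on the control arrays, 7.18, 7.21 and 7.06 at 1 h, and 6.67, 6.97 and 6.94 at 6 h. The 1 h arrays stood above the 6 h arrays, and these above the control arrays. The change of 0.63 ± 0.13 at 1 h had an adjusted p of 0.256, and it was 0.33 ± 0.13 at 6 h (adjusted p = 0.987). The widely expressed isoform Cox6a1 (1370861_at) had 11.87, 11.81 and 11.87 on the control arrays, 11.93, 11.94 and 11.84 at 1 h, and 11.93, 12.01 and 11.88 at 6 h (0.052 ± 0.056 at 1 h and 0.088 ± 0.056 at 6 h).

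Other isoforms with a narrow tissue range were dim, and their changes did not pass the test. Cox7a1 (1374698_at), a heart and muscle isoform, had 6.20, 6.07 and 6.04 on the control arrays, 6.21, 6.47 and 6.45 at 1 h, and 6.36, 6.23 and 6.29 at 6 h, with both ketone groups above the control arrays (0.27 ± 0.13 at 1 h, adjusted p = 0.444). Cox6b2 (1377097_at), known from testis, had 5.93, 5.28 and 5.51 on the control arrays, 5.57, 6.00 and 5.91 at 1 h, and 6.11, 5.88 and 5.68 at 6 h, with overlap (0.25 ± 0.20 at 1 h and 0.32 ± 0.20 at 6 h). Of 9 skeletal and cardiac muscle markers 4 were above the filter, and Ckm and Mb, which define muscle, were below it. Their summed signal was 1697 to 2288 on the control arrays, 1593 to 2244 at 1 h and 2022 to 2304 at 6 h, so the groups overlapped. Most of that sum was Myh1, with a log2 change of -0.26 ± 0.16 at 1 h. The other 3 had positive changes at 1 h, like Cox6a2 and Cox7a1, with 0.35 ± 0.15 for Acta1 (unadjusted p = 0.0442), 0.37 ± 0.18 for Myh7 and 0.18 ± 0.17 for Myh2, and the median of the 4 was 0.27. The part of muscle transcripts in the values of these isoforms was not tested. Cox4i2, Cox7b2 and Cox8b were below the filter and have no test.

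Among widely expressed subunits, Cox7c (1389820_at) had 11.23, 11.29 and 11.12 on the control arrays, 11.35, 11.54 and 11.46 at 1 h, and 11.28, 11.30 and 11.15 at 6 h, so only the 1 h arrays stood apart (0.23 ± 0.07, adjusted p = 0.359). The probe set listed as Cox7a2l2 and Cox7a2 (1367629_at) had 12.09, 12.11 and 12.11 on the control arrays, 12.20, 12.24 and 12.17 at 1 h, and 12.16, 12.14 and 12.13 at 6 h. Its 3 groups did not overlap, though the change was 0.11 ± 0.05 at 1 h (adjusted p = 0.428). Cox7a2l (1371337_at), a factor that joins complexes III and IV in supercomplexes, had 10.70, 10.83 and 10.78 on the control arrays, 10.85, 10.90 and 11.01 at 1 h, and 10.73, 10.88 and 10.79 at 6 h (0.15 ± 0.07 at 1 h).

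Cox7b (1371387_at) had 12.09, 11.86 and 11.99 on the control arrays, 12.13, 12.26 and 11.97 at 1 h, and 11.99, 12.36 and 12.16 at 6 h, with overlap (0.14 ± 0.10 at 1 h and 0.19 ± 0.10 at 6 h). Cox4i1 (1367607_at), the isoform of subunit IV found in most tissues, had 12.31, 12.15 and 12.18 on the control arrays, 12.31, 12.37 and 12.25 at 1 h, and 12.23, 12.25 and 12.32 at 6 h (0.096 ± 0.058 at 1 h). Its groups overlapped.

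Cox6b1 (1371321_at), the partner of Cox6b2, had 11.71, 11.87 and 11.60 on the control arrays, 11.71, 11.79 and 11.82 at 1 h, and 11.88, 11.80 and 11.78 at 6 h (0.046 ± 0.073 at 1 h). Cox8a (1388113_at), the widely expressed form of subunit VIII, had 12.18, 12.18 and 12.06 on the control arrays, 12.11, 12.16 and 12.20 at 1 h, and 12.15, 12.16 and 12.18 at 6 h (0.015 ± 0.053 at 1 h). Both overlapped in all groups. The negative value of the complex was Cox5a (1375127_at), with 6.45, 6.51 and 7.32 on the control arrays, 6.02, 7.30 and 6.31 at 1 h, and 6.35, 7.20 and 6.70 at 6 h (-0.22 ± 0.36 at 1 h). The remaining tested members of the complex, Cox5b (0.15 ± 0.10 at 1 h), Cox6c (0.12 ± 0.06) and the pseudogene Cox6c-ps1 (0.098 ± 0.17), overlapped between the 1 h and control arrays. Another probe set, listed as LOC100361008 and Cox5a (1370888_at) and therefore no member, had 0.025 ± 0.066 at 1 h.

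**Figure D3:**
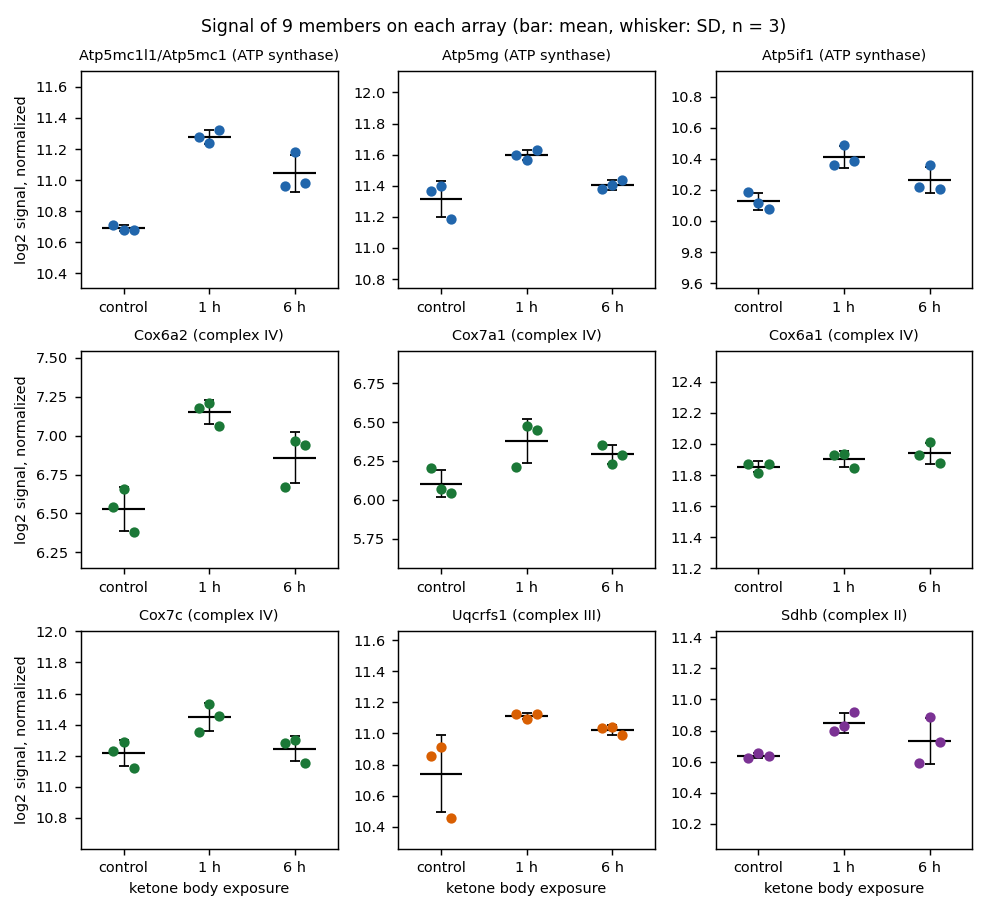
Normalized log2 signal (vertical axes, each spanning the same number of log2 units) of 9 members on each array at control, 1 h and 6 h of ketone bodies (horizontal axes), with a bar for the mean and a whisker for the SD of 3 arrays. The probe set listed as Atp5mc1l1 and Atp5mc1 lies at 10.68 to 10.71 on the control arrays and 11.24 to 11.32 at 1 h, and Cox6a2 at 6.38 to 6.66 on the control arrays and 7.06 to 7.21 at 1 h, while Cox6a1 overlaps between control and 1 h.

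The second comparison asked which differences were present after 6 h. None of the 52 members passed at an adjusted p under 0.05 (0.0268% of all tested probe sets did, in either direction), and the lowest adjusted p of a member was 0.325. The log2 change was positive for 41 members, against 53.8% of all tested probe sets, and the medians were 0.059 and 0.015. In limma 4 members were higher and 0 lower at an unadjusted p under 0.05, against 2.79% and 1.47% of all tested probe sets. Those 4 were the Atp5mc1l1 and Atp5mc1 probe set (0.35 ± 0.07, unadjusted p = 0.000611), Uqcrfs1, Cox6a2 and Atp5mk (0.13 ± 0.06). The 6 h arrays were all above the control arrays for 8 members and all below them for 0, against 6.05% and 3.15% of all tested probe sets. The median change was 0.072 in ATP synthase, 0.065 in complex III, 0.053 in complex IV, 0.020 in complex II and -0.066 in cytochrome c. After centring array medians it was 0.22 in ATP synthase, 0.21 in complex III, 0.19 in complex IV, 0.11 in complex II and 0.079 in cytochrome c, whose sign turned. Centring also moved the median of the other probe sets at a mean log2 level of 10 or more, from 0.0018 to 0.13 (89.3% positive). Over all tested probe sets the centred median was 0.071. Without 6 h replicate 2 the number of members higher at an unadjusted p under 0.05 was 1 (1.84% of all tested probe sets). After centring array medians it was 10 (3.91%).

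The third comparison set 6 h against 1 h. None of the members passed (0% of all tested probe sets did), and the lowest adjusted p of a member was 0.996. The change was positive for 9 of 52 members and negative for 43 (47% of all tested probe sets were positive), with a median of -0.083 against -0.012 over all tested probe sets. At an unadjusted p under 0.05 in limma 5 were lower and 0 higher, against 1.41% and 1.31% of all tested probe sets. These were the Atp5mc1l1 and Atp5mc1 probe set (-0.24 ± 0.07), Cox7c (-0.20 ± 0.07), Sdha (-0.20 ± 0.08), Atp5mg (-0.19 ± 0.07) and Cox6a2 (-0.29 ± 0.13). For 11 members the 6 h arrays were all below the 1 h arrays and for 0 all above them, against 4.04% and 3.55% of all tested probe sets. All 20 probe sets of ATP synthase had a lower mean at 6 h than at 1 h, by a median of -0.11. The comparisons share arrays, so these counts are not independent of those at 1 h.

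Factors that build the complexes were examined beside the subunits, and 0 of them passed at an adjusted p under 0.05. Over all tested probe sets at 1 h, 55.3% had a positive log2 change and 6.68% were higher at an unadjusted p under 0.05. At 1 h the log2 change was positive for 9 of 9 tested probe sets of complex III assembly factors, with a median of 0.21 and 5 higher at an unadjusted p under 0.05, among them Uqcc3 (0.57 ± 0.15) and Uqcc5 (0.42 ± 0.18). Complex IV factors were positive at 24 of 31 probe sets with a median of 0.14, and 6 were higher at that threshold. Among these were Sco1, which delivers copper (0.57 ± 0.16), Cox14 (0.49 ± 0.11) and a probe set of Pet100 (0.40 ± 0.11). The other Pet100 probe set had 0.16 ± 0.13, and its 1 h arrays overlapped the control arrays. The 7 negative values of this list went down to -0.36 ± 0.19, for Hccs. Complex II factors were positive at 5 of 5, with a median of 0.19 and 0 at that threshold. ATP synthase factors were positive at 6 of 7, and Fmc1 was the one higher at that threshold (0.52 ± 0.14). None of these 4 lists held a probe set that was lower at 1 h at an unadjusted p under 0.05.

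Regulators of respiratory genes showed no shared direction, with 9 of 18 probe sets positive at 1 h and a median of 0.0012. Tfam, which packages and transcribes mitochondrial DNA, had 0.32 ± 0.10 and the nuclear receptor Esrra 0.37 ± 0.15, the 2 higher at an unadjusted p under 0.05. The coactivator Ppargc1a had -0.023 ± 0.12 and -0.21 ± 0.16 at its tested probe sets, and Nrf1 had 0.0051 ± 0.14. The list for ATP export and phosphate import holds carriers and the channels Vdac1, Vdac2 and Vdac3. Its median at 1 h was 0.048 over 7 probe sets, of which 5 were positive and 2 negative. The carriers Slc25a3 and Slc25a4 both had 0.11 ± 0.07, and the carrier Slc25a5 had -0.028 ± 0.085. A Vdac1 probe set had the lowest value of the list, -0.47 ± 0.30.

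Other lists of nuclear-encoded subunits also had positive medians at 1 h, and no difference between lists was tested. The median change was 0.14 in the members, against 0.22 for complex I subunits (37 of 38 probe sets positive), 0.20 for mitochondrial ribosomal proteins (84 of 92) and 0.15 for cytosolic ribosomal proteins (50 of 58).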

How the data were processed

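The deposited table gives 31099 probe sets on 9 arrays as linear signal intensity. No software or filter behind the deposited intensities is given in the labels. The values themselves show the linear scale, and each array has the same mean of 150.05 once 2% of probe sets are trimmed at either end. Arrays were grouped and numbered by their labels.

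The members and lists were chosen with earlier results of these data known. Without the 57 control probe sets, log2(signal + 16) was quantile normalized. Probe sets below the 40th percentile of mean level (log2 5.21, a signal of about 21.0) were dropped, leaving 18625. limma 3.58.1 (R 4.3.3) fitted all groups together, leaving 6 residual degrees of freedom, and gave the 3 comparisons, with an intensity trend and Benjamini-Hochberg adjustment over every tested probe set at 0.05. The fit was tested on simulated data. A fold change is on the log2(signal + 16) scale, which understates the change of dim probe sets. Bright probe sets were set apart at a mean log2 level of 10, a limit chosen after the data were seen.

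Gene names come from the platform annotation. The Cyc1 and Cycs terms were matched anywhere in a symbol. Per-array values are given for called members, for the 3 smallest p and the most negative change per complex and comparison against control, for isoform groups, for Atp5if1 and for genes whose probe sets disagree, and the rest by range and counts. Replicate numbers were not used to pair arrays. The alternatives varied the scaling (as deposited or centred), pseudocount (1 or 64), filter (none or 60th percentile), trend, weights, replicate block, groups fitted, probe sets per gene and arrays left out, restricted members to single genes, and added the beta-actin ratio as a covariate. Figures were drawn with matplotlib 3.10.9.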

Additional observations from a re-analysis of the deposited data

How the results depend on the processing

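The call of the Atp5mc1l1 and Atp5mc1 probe set at 1 h, the 1 member called, was kept on the values as deposited (adjusted p = 0.0436), after centring (0.0333), with a pseudocount of 1 or 64 (0.0297 and 0.0309), at the 60th percentile (0.0254), with array weights (0.00457), with the compared groups alone (0.0357) and with 1 probe set per gene (0.0122). The count was 0 without a filter, without the intensity trend, with the replicate block, with the beta-actin covariate, when 1 h replicate 3 and 6 h replicate 1 (the arrays outlying on the first principal component) were left out (0.151), and over members of a single gene, which leaves that probe set out. Leaving out each array gave 0 to 1 calls, with 1 without 6 h replicate 1 or 2.

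Members higher at an unadjusted p at 1 h, 17 in all, numbered 8 without the trend, 11 with the covariate, 29 as deposited and 42 centred (9 to 16 with each array left out). Over all tested probe sets 6.68% were higher in the main fit, and 6.58%, 4.39%, 5.88% and 11.3% in those 4 settings. At 6 h, 4 became 2 without the trend, 2 with the compared groups alone and 10 centred (1 to 5). The shares of all tested probe sets at 6 h were 2.79% in the main fit, and 3.04%, 2.19% and 3.91% in those settings. For 6 h against 1 h, 5 became 2 without the trend and 2 without the outlying arrays (3 to 7). Positive members in that comparison, 9, became 2 as deposited, 2 centred and 15 with weights (6 to 15). Member medians were 0.22 and 0.33 at 1 h, 0.12 and 0.19 at 6 h, and -0.13 and -0.16 for 6 h against 1 h, as deposited and centred. With each array left out they ran from 0.10 to 0.17, 0.026 to 0.085 and -0.10 to -0.057, and positive members from 42 to 47 at 1 h and 33 to 45 at 6 h. Complex medians so taken ran at 1 h from 0.069 to 0.12 (complex III) and 0.13 to 0.22 (ATP synthase), at 6 h from -0.073 to 0.14 (complex II), 0.024 to 0.11 (complex III) and 0.029 to 0.11 (ATP synthase), and for 6 h against 1 h from -0.063 to -0.013 (complex IV).

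Whether replicate numbers pair the arrays is not stated in the labels. Correlations of same-numbered deviations ran from -0.36 to 0.54, over 0.1 in 3 of 9 pairs, and 4 of 9 arrays correlated best with their own number. The outlying arrays, 1 h replicate 3 and 6 h replicate 1, correlated at 0.53 though numbered differently, so these correlations cannot settle the pairing. With the replicate block the called probe set had an adjusted p of 0.113, and 17 members at 1 h and 3 at 6 h passed at an unadjusted p.

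Some changes turned sign, none of them called, and the largest in size was Uqcrc2 (1382280_at) at 6 h, at -0.27 ± 0.38. As deposited they were 0.057 for Sdhc, 0.034 for Uqcrc2 (1373362_at), 0.099 for Cycs (1369939_at), 0.13 for Atp5mc3 and -0.027 for Atp5if1 (1371229_at) at 1 h, 0.0012 and 0.0021 for the Cycs probe sets and 0.047 for Atp5mc3 at 6 h, and -0.054 for Uqcrc2 at 6 h against 1 h. Centred they were 0.16 for Sdhc, 0.14 for Uqcrc2, 0.20 for Cycs (1369939_at) and 0.24 for Atp5mc3 at 1 h, 0.057 for Uqcrc2, 0.079 and 0.080 for Cycs, 0.0055 for Cox5a, 0.018 for Atp5mc2 and 0.12 for Atp5mc3 at 6 h, and -0.081 for Uqcrc2 at 6 h against 1 h. With the covariate they were 0.031 for Sdhc, 0.0020 for Cycs (1369939_at) and 0.012 for Atp5mc3 at 1 h, and 0.14 for Uqcrc2 (1382280_at), 0.082 for Cycs (1387773_at) and 0.0037 for Atp5mc2 at 6 h. Without the outlying arrays they were 0.0041 for Atp5mc3 and -0.0074 for Cox8a at 1 h, and 0.028 for Uqcrc2 (1382280_at), 0.094 for Cycs (1387773_at), 0.18 for Cox5a, 0.0092 for Atp5mc2, 0.052 for Atp5if1 and 0.022 for Atp5mc3 at 6 h. With weights they were -0.024 for Cox8a at 1 h, and 0.0026 and 0.021 for Cycs, 0.25 for Cox5a, 0.038 for Atp5if1 and 0.015 for Atp5mc3 at 6 h.

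With each array left out, the ranges that crossed 0 at 1 h were -0.075 to 0.061 (Sdhc), -0.098 to 0.0038 (Cycs 1369939_at), -0.59 to 0.064 (Cox5a), -0.035 to 0.0077 (Atp5mc3), -0.30 to 0.32 (Uqcrc2 1382280_at), -0.0014 to 0.39 (Atp5mc2), -0.038 to 0.16 (Atp5if1 1371229_at), -0.017 to 0.11 (Cox6b1) and -0.026 to 0.040 (Cox8a). At 6 h they were -0.64 to 0.029 (Uqcrc2 1382280_at), -0.19 to 0.093 (Cycs 1387773_at), -0.24 to 0.27 (Cox5a), -0.28 to 0.11 (Atp5mc2), -0.10 to 0.051 (Atp5if1 1371229_at), -0.064 to 0.022 (Atp5mc3), -0.012 to 0.058 (Cox7a2l) and -0.017 to 0.048 (Cox8a). For 6 h against 1 h they were -0.054 to 0.087 (Uqcrc2 1373362_at) and -0.65 to 0.016 (Uqcrc2 1382280_at). The cause of these turns was not tested. Atp5mc2 and Cycs name here the probe sets listed with several symbols.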
